A study of Dreissena polymorpha with 11 samples.

Results

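The 27 sequences described here were those whose signal was higher on both gill arrays of the zebra mussel than on every digestive gland and gonad array. The zebra mussel Dreissena polymorpha is a freshwater bivalve, and the array carried probes for 3541 sequences from it, 2864 of them with identifiers that begin with EY. Members were chosen from the EY sequences by measured values, through their 2 probes that were brightest on average over 10 arrays. For each probe the gap was the relative log2 signal on the lower gill array minus that on the highest of the digestive gland and gonad arrays. A member had a gap of at least 1 in both probes, an intensity above 50 in both probes on both gill arrays, and a gill mean not below larvae replicate 2 or the half-body mean. The limit of 100 sequences set for this selection was not reached, so all 27 that met it were kept. The relative log2 signal is log2 of the scanner's processed intensity minus the array's median over 1325 EY probes that exceeded 1000 on all 10 arrays, a median that lay at intensities between 17027 and 42821.

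No group was treated, and total RNA of each sample was labelled with the dye Cy3 and read on 1 array. There were 2 arrays each of gill, digestive gland, male gonad and the half-body samples, and 1 of female gonad. The half-body pair holds 1 female and 1 male sample, each with replicate number 1, and they are averaged here as 1 group. Larvae at 24 h after fertilisation had 2, of which replicate 1 was nearly blank and is left out below. The starting RNA was 500 ng for tissues and 200 ng for larvae. The gender label calls replicate 1 of gill and of digestive gland female and replicate 2 male, while another label calls all 4 female. The labels give no age for the adults, do not say which organs a half-body sample holds, and, apart from the sexes of the half-body pair, do not say whether replicates are separate animals. Any p-value therefore reflects only how far these arrays differ, which may be technical.

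The gill of a bivalve is both a respiratory surface and the pump and filter of the animal: beating cilia drive water between the filaments, and mucus carries trapped particles to the mouth. Its epithelium also takes up ions in fresh water. The digestive gland breaks down and absorbs the food, stores reserves and handles many foreign compounds, and the gonads hold the developing eggs or sperm. A larva of this age is a free-swimming stage that moves with cilia of its own. None of the 27 members could be named: the files pair no EY identifier with a gene, 0 of the 3541 identifiers matched the RefSeq table for UMN_Dpol_1.0, which lists 51549 genes, and the files used here hold no probe sequences. The sequences are therefore called by their identifiers, no pathway or cell type list was applied, and the labelled tissues could not be checked against named markers.

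The 10 arrays used had between 4380 and 5648 of 13654 probes well above background, a call that the scanner's software makes per spot, and larvae 1 had 106. Gill 1 was alone on slide 3, slide 1 held digestive gland 1, male gonad 1, half-body 1 and larvae 1, and slide 2 held the other 6 arrays. The level of unlit probes differed on the relative scale: over the 5742 EY probes not well above background on any of the 10 arrays, gill 1 had a median of -12.33, gill 2 one of -12.18, and the digestive gland and gonad arrays ones of -12.98 to -13.95. Such probes had a median gap of 0.62, and 1.34% of them had a gap of 1 or more, before the demand on gill intensity. Signals near these levels are therefore read as limits, not as amounts: in each fold below, every unlit reading of the other tissues is raised to the lowest signal well above background on its array, and the fold is then written as "at least". The limma fits take all readings as measured, unlit ones included.

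The values that chose the members are given as a description. Of 2701 EY sequences with 2 probes, 756 had both probes above 50 on both gill arrays, and their median lower gap was -0.75, so that most had at least 1 probe with a digestive gland or gonad array above a gill array. In 30 of them, or 3.97%, both gaps were 1 or more. A further 3 of these were set aside because larvae 2 was brighter than gill: EY434870 had -6.22 in larvae 2 and -6.84 in gill, EY433901 had -6.71 and -6.96, and EY434319 had -4.16 and -4.37. The mean gap of the 27 members ran from 1.16 to 4.63 with a median of 2.23. It was 4 or more in 4 members, between 2 and 4 in 12 and under 2 in 11. Just inside the threshold lay EY434451, with a lower gap of 1.12, and EY436469, with 1.18, and just outside it lay EY436204, with 0.94, and EY435036, with 0.85. Outside the EY series, 2 of 605 sequences with 2 probes met the same criteria.

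**Figure D1:**
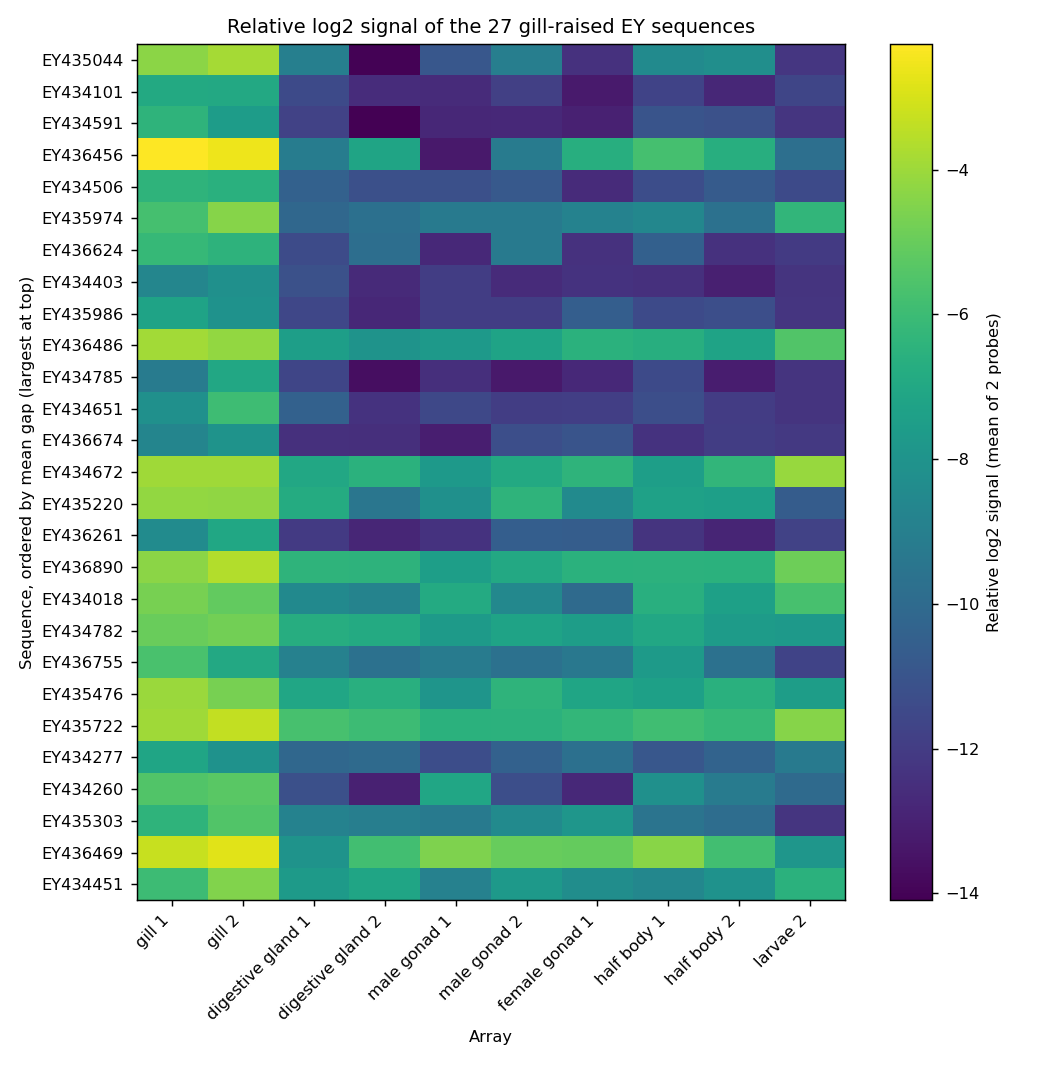
Relative log2 signal (colour, mean of 2 probes) of the 27 sequences (rows, largest mean gap at the top) on the 10 arrays (columns). Both gill columns are the brightest cells of every row; the highest gill value is -2.27 in EY436456 on gill 1.

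The sequence with the largest mean gap was EY435044, with probes CUST_6038_PI415929191 and CUST_6036_PI415929191. Its relative log2 signal was -4.31 on gill 1 and -3.86 on gill 2. On digestive gland 1 and 2 it was -8.99 and -14.03, on male gonad 1 and 2 it was -10.88 and -9.05, and on female gonad 1 it was -12.42. Digestive gland 2 and female gonad 1 were not well above background, while the other 3 were. In intensity, its brighter probe read 2391 and 1562 on the gill arrays, and between 2.9 and 102.7 on the 5 digestive gland and gonad arrays. Gill was at least 85.1-fold above the mean of the 3 other tissues. As read, the arrays of those tissues were spread over more than 5 log2 units. The lowest of them, digestive gland 2, was unlit, so that spread is not an amount. A lower amount in a tissue can mean fewer cells that hold a transcript or less of it per cell, and on arrays of whole organs these cannot be told apart.

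EY436456 was the brightest member, with -2.27 and -2.55 on the gill arrays and intensities of 42050 and 16391 in its brighter probe. It was far from dark elsewhere: its values were -9.12 and -7.20 in digestive gland, -9.17 on male gonad 2 and -6.68 in female gonad, and only male gonad 1, at -13.28, had no probe well above background. Its dimmer probe was also unlit on digestive gland 1 and male gonad 2, so its values on those arrays are not amounts. Gill was at least 53.8-fold above the mean of the other tissues. Its 2 probes differed by 5.04 log2 units in brightness, the widest such difference among the members, yet both had gaps near 4, of 3.89 and 4.39.

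EY434101 and EY434591 were unlit on nearly every digestive gland and gonad array. EY434101 read -6.93 and -6.94 in gill and between -13.25 and -11.42 on the 5 digestive gland and gonad arrays, of which 1 was well above background. EY434591 read -6.39 and -7.54 in gill and was well above background on none of those 5 arrays, the only member with that pattern. Gill lay at least 20.6-fold and at least 21.3-fold above the other tissues in these 2 sequences. Their gill intensities were modest, with 313.2 and 162.8 for the brighter probe of EY434101 and 519.6 and 108.5 for that of EY434591, so the fold is limited by how far the other arrays can read down.

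**Figure D2:**
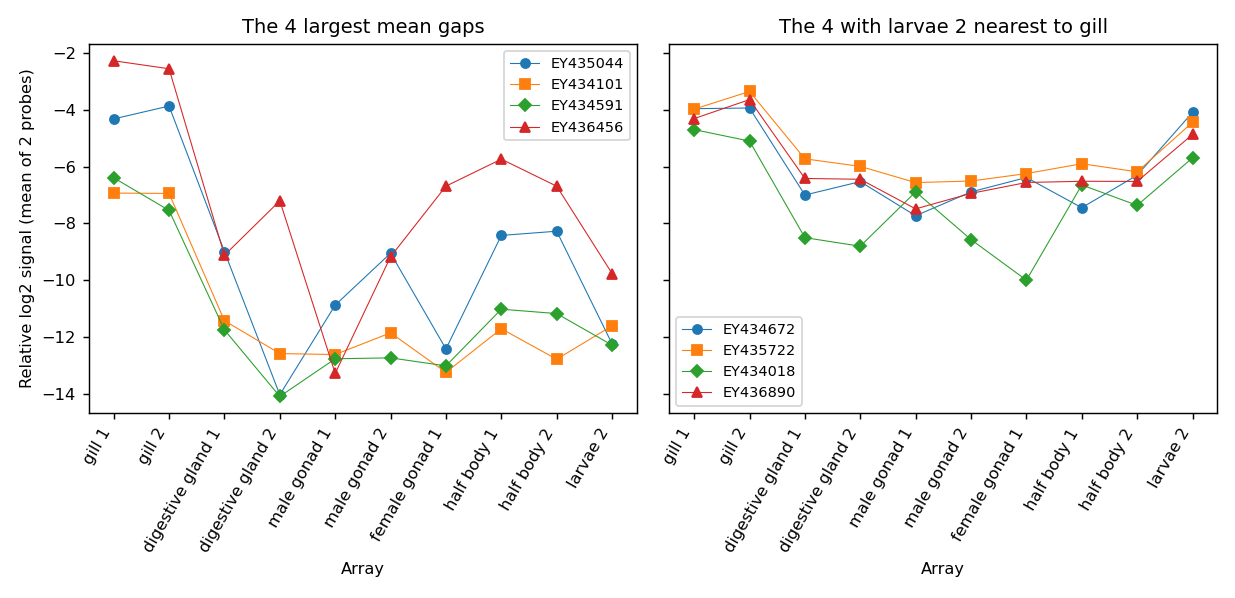
Relative log2 signal (mean of 2 probes) on the 10 arrays for the 4 sequences with the largest mean gap (left) and the 4 whose larval signal lay nearest to gill (right). Lines only join the points of 1 sequence. On the left EY435044 drops to -12.24 in larvae 2, and on the right EY434672 reaches -4.08 there, next to its gill values of -3.95 and -3.93.

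Several other members were also unlit in a whole tissue. In all, 12 of the 27 members were not well above background on any array of at least 1 of digestive gland, male gonad and female gonad. Members were chosen for low signal on these arrays and the share over all sequences was not computed, so this count is a description only. EY434506 read -6.41 and -6.59 in gill and between -12.64 and -10.43 on the other 5 arrays, a gill excess of at least 20.9-fold. For EY436624 gill read -6.16 and -6.46, and the slide 2 arrays of digestive gland and male gonad, at -9.84 and -9.27, were brighter than the slide 1 arrays, at -11.39 and -12.75. EY434403 was among the dimmest, with -8.68 and -8.16 in gill and an intensity of 80.8 on average over its probes. EY435986 read -7.23 and -8.07 in gill, with female gonad at -10.54 as the highest of the others and an excess of at least 11.5-fold. EY434785 and EY434651 differed most between the gill arrays, with gill 2 above gill 1 by 2.19 and 2.22 log2 units. Over all members the difference of gill 2 from gill 1 ran from -1.29 to 2.22 with a median of 0.17. It was under 1 in size in 20 of 27, and gill 2 was the higher in 15. Gill 1 and gill 2 differ in slide and in gender label, which cannot be told apart.

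Other members were lit in every tissue, and their counts are again a description with no share over all sequences beside them. A total of 13 members had a probe well above background on all 5 digestive gland and gonad arrays, and 10 had one on all 10 arrays. Their gill excess ran from 5.22-fold to at least 17.6-fold in EY435974, with 14.9-fold in EY434018 and 13.4-fold in EY435220, so that it overlapped the limits given for the members unlit elsewhere. EY436469 read -3.27 and -2.79 in gill and was also strong in male gonad, at -4.56 and -5.02, and in female gonad, at -5.06, but weaker in digestive gland, at -8.01 and -5.85. EY434672 read -3.95 and -3.93 in gill and between -7.73 and -6.38 on the other 5 arrays, a gill excess of 7.33-fold. EY435722 read -3.97 and -3.35 against -6.56 to -5.72, an excess of 5.86-fold, and EY436890 read -4.30 and -3.63 against -7.48 to -6.41, an excess of 6.79-fold. EY435476 lay at -4.02 and -4.69 in gill and at -7.92 to -6.41 elsewhere, and EY434782, with -4.97 and -4.76 against -7.65 to -6.74, had the smallest excess of all members, 5.22-fold. In these 6 sequences the gill arrays stood above a background of measurable signal in each other tissue.

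For scale, a limma model fitted to all 2393 sequences that passed the detection filter called 62 sequences, or 2.59%, higher and 30, or 1.25%, lower (3.84% in all) in gill than in the mean of digestive gland, male gonad and female gonad, at a Benjamini-Hochberg adjusted p below 0.05. Among them were 17 of the 27 members, a count that the selection on this same contrast sets and that is no test of them. The fitted differences of the members ran from 2.38 to 7.21 log2 units with a median of 3.78, and the median over all sequences was 0.45. EY434506 had the smallest adjusted p, at an SE of 0.38 log2 units (limma adjusted p = 0.0025). EY435044, the largest difference at 7.21 ± 1.37, was not called (limma adjusted p = 0.052). These p-values come from the arrays that chose the members and are no test of them. Each of these sequences also had 5 unlit probe readings in digestive gland and gonads, which the fit takes as measured. With the slide as a block 1 member was called, and without gill 1 or without gill 2 the count was 2 and 1. Within slide 2, which holds 1 array of every group, gill 2 exceeded the highest of digestive gland 2, male gonad 2 and female gonad 1 by 1.63 to 5.96 log2 units in the 27 members, and these arrays had helped to choose them.

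The selection placed digestive gland and gonads below gill through the highest of their 5 arrays, but set no order among them. As read, unlit readings included, the highest of their 5 arrays was digestive gland 1 in 11 members, female gonad 1 in 8, male gonad 2 in 4, male gonad 1 in 3 and digestive gland 2 in 1. Unlit EY probes also read highest on digestive gland 1 among these 5 arrays, with a median of -12.98. The same tally over all sequences was not made, so it is not read as an order of tissues. Digestive gland minus male gonad ran from -2.95 to 3.07 log2 units with a median of 0.19, against 0.08 over all sequences. Its ends, EY434260 and EY436456, rest on unlit readings and are not amounts. limma called 0 of 27 members and 0% of the 2393 sequences, with 1 member at an unadjusted p under 0.05, EY436469, with a difference of -2.14 ± 0.86, beside 2.17% of all sequences. Female gonad minus male gonad ran from -3.54 to 4.54 with a median of 0.02, against 0.10 over all sequences. EY434260 and EY436456 again set the ends, which rest on unlit readings and are not amounts. Again limma called 0 members and 0% of all sequences, and 3 members had an unadjusted p under 0.05, beside 4.18% of all sequences. They were EY434018, lit on all 5 arrays, with a difference of -2.27 ± 0.78, EY436456, with male gonad 1 unlit, and EY434506, with female gonad unlit, whose differences are not given as amounts. Female gonad has 1 array, which the model assumes to vary like the arrays of the other groups. A further case of spread within a tissue was EY434260, which read -7.09 on male gonad 1 and -11.26 on male gonad 2, with gill at -5.47 and -5.30. With a median SE of 0.64 for the first contrast and 0.78 for the second, the absence of calls does not show that these tissues hold the members at the same level.

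Half-body samples were then set beside the dissected tissues. Both half-body arrays lay below both gill arrays in all 27 members. The selection asked for high signal on both gill arrays and capped the half-body mean at gill, so this order is a description only. In the 15 members with both probes lit on both half-body arrays, gill exceeded the half-body mean by 2.10 to 4.26 log2 units with a median of 2.90. In the other 12, with unlit readings raised to the array's lowest lit signal, it did so by at least 2.26 to at least 4.37, and 8 of these were lit on neither half-body array. As read, the half-body mean fell within the range of the 5 digestive gland and gonad arrays in 21 of 27 members (68.9% of all sequences tested), above all 5 in 4 (22.1%) and below all 5 in 2 (9.03%). The 4 above were EY435044, by 0.64, EY436456, by 0.47, EY436755, by 0.21, and EY434591, which was unlit on the other 5 arrays and in 3 of its 4 half-body readings. EY435044 read -8.42 and -8.27 in the half-body samples, close to each other and between gill and every other tissue. At the other end, EY435303 lay 1.85 log2 units below its highest digestive gland or gonad array, and EY436624 and EY436261 were unlit on both half-body arrays. Half-body minus the mean of those tissues had a median of 0.22 in the members and 0.14 over all sequences, with a range of -1.17 to 2.95. The upper end was EY435044, whose tissue readings were partly unlit, and is not an amount. limma called 0 of 27 members and 0% of all sequences. At an unadjusted p under 0.05 there were 3 members, 2 higher and 1 lower, beside 10% of all sequences tested. Of the 2 higher, EY434591 rests on unlit readings, so its difference is not an amount. The members were chosen for low values on these same tissue arrays, so this contrast is not independent of the choice.

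A probe was well above background on larvae 2 in 13 of 27 members, beside 76.9% of all sequences tested. The detection filter admits any sequence lit on larvae 2, the only larval array used, so the larval shares over all sequences are partly set by it. All 27 members were lit on both gill arrays. The 13 lay below gill by 0.14 to at least 6.49 log2 units with a median of 1.42, any unlit probe reading among them being raised to the lowest lit signal. For the 14 unlit members the larval reading is only a limit, and with it raised to the lowest lit signal of that array they lay below gill by at least 1.78 to at least 6.11 log2 units. In 8 members larvae 2 was above all 5 digestive gland and gonad arrays, beside 42% of all sequences tested. EY434672 was nearest to gill, with -4.08 in larvae 2 beside a gill mean of -3.94 and a half-body mean of -6.87. EY435722, EY434018 and EY436890 followed at 0.77, 0.79 and 0.89 log2 units below gill, then EY435974, EY434451, EY436486 and EY434277. EY435974 read -6.30 in larvae 2, with -5.73 and -4.43 in gill and no other adult array above -8.63. At the other end were EY435044, unlit in larvae 2 and at least 6.11 log2 units below gill, EY436456, at -9.76 with 1 probe lit and at least 6.49 below gill, and EY435220, unlit and at least 5.99 below gill. All 3 were among the 8 brightest members in gill by relative log2 signal. EY435303 was unlit in larvae 2, at -12.26, and lay between -9.26 and -7.87 in digestive gland and gonads, and EY436755 was unlit in larvae 2, at -11.71, and lay between -9.67 and -8.88 in those tissues.

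**Figure D3:**
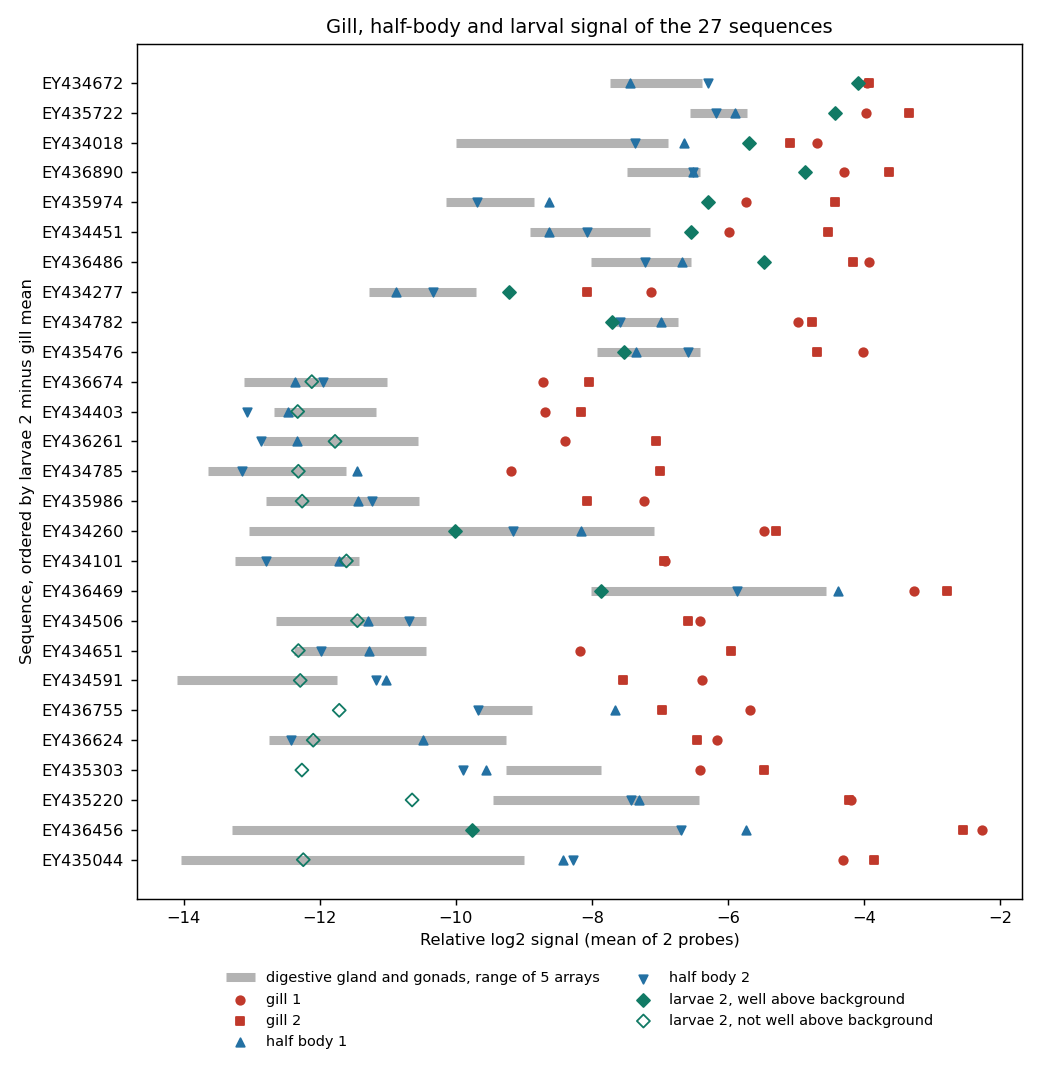
Relative log2 signal (mean of 2 probes) of the 27 sequences, ordered by larvae 2 minus the gill mean, with 1 point per gill, half-body and larval array and a grey bar for the range of the 5 digestive gland and gonad arrays. The 8 sequences at the top have larval signal to the right of the grey bar, and open diamonds mark the 14 sequences not well above background in larvae 2.

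The selection capped larvae and half-body at gill and did not set their order, although the cap on larvae removed 3 sequences, so their difference is not fully independent of the choice. As read, larvae 2 lay above both half-body arrays in 11 members, beside 48.7% of all sequences tested, and below both in 13, beside 35.6%. Among the 11, EY434101, EY434403 and EY436261 were unlit in larvae 2 and on both half-body arrays, so their order is not read. Some of the 13 were also unlit in larvae 2, where the larval value is only a limit. The difference, larvae minus half-body, ran from -3.89 to 2.86 log2 units with a median of -0.42, against 0.28 over all sequences. Its lower end was EY435044, unlit in larvae 2, and is not an amount. limma called 0 of 27 members, beside 0.669% of all sequences (0.376% higher and 0.293% lower), and 9 members had an unadjusted p under 0.05, 5 of them higher and 4 lower, beside 21% of all sequences. Of the 4 lower, only EY436469 was lit in larvae 2. The differences of EY435220, EY435303 and EY436755 rest on unlit larval readings and are not amounts. The smallest adjusted p among the members belonged to EY434672, with a difference of 2.79 ± 0.66 (SE, limma adjusted p = 0.094). EY435974 had 2.86 ± 0.73 (limma adjusted p = 0.11). Larvae were represented by 1 array made from less RNA, which the model assumes to vary like the other groups, and stage, RNA input and that array cannot be told apart.

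The selection used 2 probes of each sequence, and the remaining 71 probes of the 27 members read the same RNA on the same arrays. Of these 71, 28 were not well above background on any of the 10 arrays, 16 were so on some array but not on both gill arrays, and 27 were well above background on both gill arrays. In the 27 that gill lit, the gap was above 0 in every one, 1 or more in 25, and 2.08 in the median. This is a description only, because these probes were kept through gill, where the members are high. In the 16 lit on some array but not on both gill arrays, the gap ran from -5.60 to 2.94 with a median of 0.65. It was below 0 in 4, namely a probe of EY435722 at -5.60, 1 of EY436624 at -0.71 and 2 of EY435476, and 1 or more in 4. For comparison, 863 such further probes of other EY sequences were lit on both gill arrays, with a median gap of -0.68 and 3.94% at 1 or more. The 27 came from 16 members, in 15 of which each probe lit on both gill arrays had a gap of 1 or more, EY435722 being one of them despite its probe at -5.60. For EY436755 these probes had gaps of 3.53 and 4.19, wider than those of the probes used to choose it, at 1.40 and 2.12. Both exceptions belonged to EY436469, with 0.34 and 0.60. In 7 members every remaining probe was well above background on both gill arrays with a gap of 1 or more, namely EY435044, EY435974, EY434403, EY436486, EY434651, EY436755 and EY434451. The other 11 members had no further probe well above background on both gill arrays, EY435476 and EY436624 among them. No test was made, since these are the same arrays and the same contrast.

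**Figure D4:**
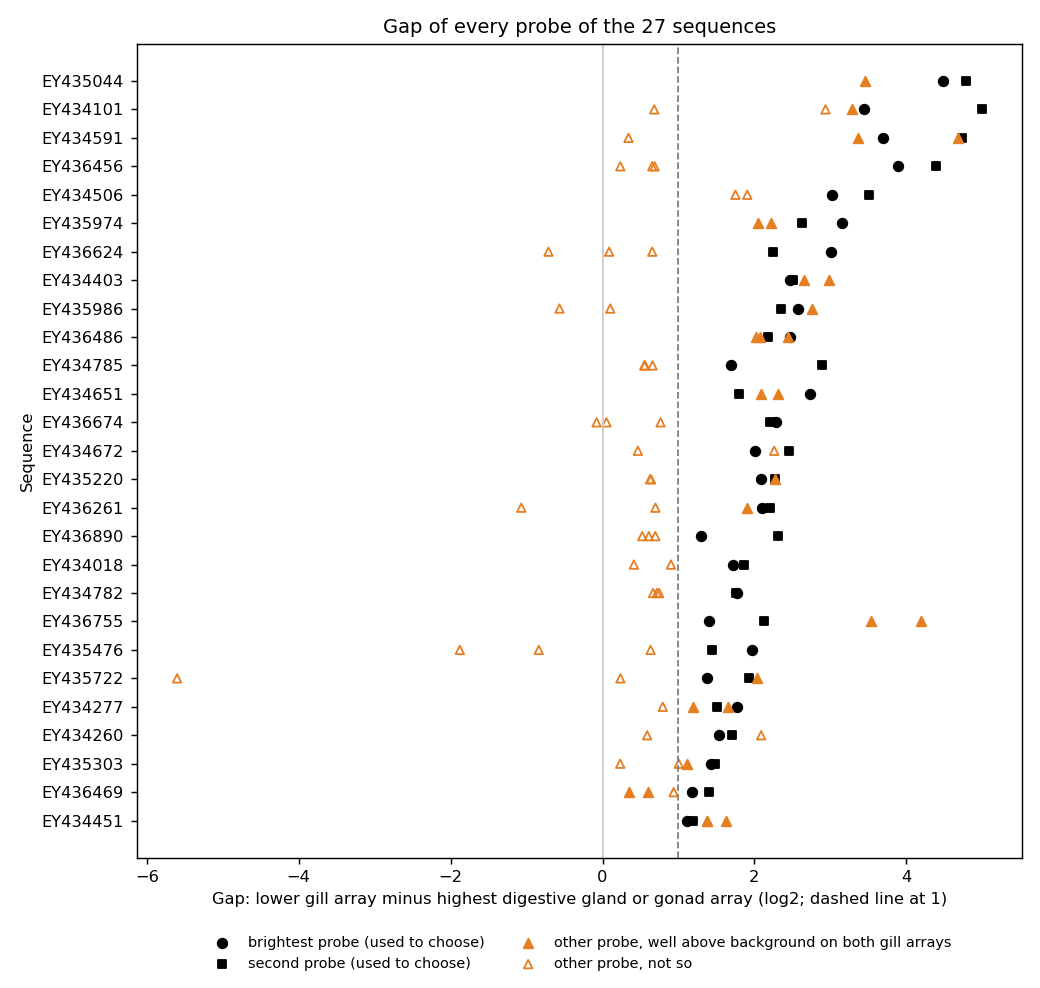
Gap in log2 units (lower gill array minus highest digestive gland or gonad array) of every probe of the 27 sequences, with a dashed line at the threshold of 1. Black symbols are the probes used for the choice; of the filled triangles, the other probes that gill lit, 25 of 27 lie at 1 or more.

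Agreement between the 2 probes used was close in most members. Their Pearson correlation over the 10 arrays ran from 0.74 in EY436755 to 0.999 in EY435220 with a median of 0.961, as a description of points that share arrays and RNA and were selected together. Their gaps differed by 0.007 to 1.56 log2 units with a median of 0.31. Between members, the correlation over the same 10 arrays ran from 0.16 to 0.99 over 351 pairs. The pair most alike was EY436890 and EY435722 (r = 0.99 over 10 arrays), which kept a mean difference of -0.48 log2 units to within 0.44 on every array. Whether they come from 1 transcript was not tested, because no sequences were used here. EY434785 and EY434651, picked here for their wide gill difference, had r = 0.98. They had a probe well above background on only 3 and 5 of the 10 arrays. Their r therefore rests largely on gill against unlit readings and is a description only.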

How the data were processed

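The 11 samples were hybridised to single-dye arrays, and groups were taken from the labels. Processed intensity per spot is as deposited: per the file headers, Agilent Feature Extraction 10.5.1.1 removed background and a spatial trend array by array. Array levels still differed, so they were scaled here as the report states. The authors also deposited a table of log2 values with 14519 rows, whose scaling and centring are not given in the sources used here. It was used only as an alternative.

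Control spots and spots with outlier flags were left out, and spots of 1 probe were averaged as log2. A probe counted as well above background if most of its spots were so called. Each sequence was the mean of its 2 brightest probes. Sequences entered the fit if either probe was lit, that is well above background, on every array of any 1 group (2469, of which 76 with a missing value were dropped). limma 3.58.1 (R 4.3.3) fitted 1 mean per group to 10 arrays, with Benjamini-Hochberg adjustment over all 2393 sequences, and the script was tested on simulated data. For "at least N-fold", each unlit probe reading was raised to the lowest signal well above background on its array, a rule chosen after seeing the data. The rule for naming covered the 10 largest mean gaps, the 5 brightest others, the extremes for half-body and larvae, and the threshold's neighbours; other sequences were named after their values were seen.

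The members, rules and tests were chosen with earlier results of these data known. The number of arrays limits the precision. The normexp alternative used the median spot signal, since the files used here hold no mean signal.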

Additional observations from a re-analysis of the deposited data

How the results depend on the processing

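The choice of members depended on its settings: all 27 still met the criteria with the 75th percentile over probes detected on all 10 arrays, 21 with the 75th percentile over all probes and 21 with normexp, but 10 with the third probe in place of the second, 15 with a gill intensity above 200 and 14 with a gap of 2. The 17 members called in the gill contrast became 7 with the 75th percentile over all probes, 11 with quantile normalization, 1 with the slide as a block, 0 with the deposited value table and 0 with all 11 arrays. Leaving out 1 array gave 1 to 19, with 2 without gill 1, 1 without gill 2, 10 without digestive gland 2 and 6 without either half-body array; the cause was not tested beyond the fewer arrays. The replicate block, with the number in the title as the block, gave 17 members again. Differences between replicates 1 and 2 had a correlation of 0.782 for digestive gland with male gonad but of 0.01 and 0.032 for gill with each of them, so the numbers were not taken as pairs. The count of all sequences called moved from 92 to 36 with the 75th percentile over all probes, to 62 with quantile normalization, where 38 were higher, to 41 with normexp, to 61 with both probes detected, to 3 with the deposited value table, to 7 with all 11 arrays, to 29 when slide was the block, and to 22 to 79 without 1 array. Taken singly, 223 probes were called. The split of 62 higher and 30 lower became 84 and 29 with the percentile over detected probes and 11 and 25 with that over all probes. In larvae minus half-body the count of all sequences moved from 16 to 86, 177, 8, 10, 41, 0 and 3 with the percentile over detected probes, quantile normalization, normexp, no filter, both probes detected, the slide as a block and the replicate block, to 0 with the percentile over all probes, the deposited value table or all 11 arrays, and to 0 to 9 without 1 array; 542 single probes were called. In the 4 contrasts other than gill, 0 members were called under each of 19 other settings. All members kept a higher gill mean in 17 of 18 settings, a sign that the selection on these arrays largely sets and that is no test of them. The exception was the deposited value table, where the sign turned for EY436624 (-1.994), EY435986 (-2.423), EY436674 (-0.403), EY434277 (-1.794) and EY434260 (-1.175). With only tissues unlit on all their arrays raised to the lowest lit signal, the gill excess was 109.7-fold in place of 85.1 for EY435044 and 77.9-fold in place of 53.8 for EY436456; raising every unlit reading was chosen after seeing the data.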

Other observations

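On larvae 1, 0 of the 54 probes used for the choice of the 27 members were well above background, on an array where 106 of all 13654 probes were. In the authors' deposited table, the column of gill 1 correlated with log2 of its own scanner intensities at 0.579 and that of larvae 1 at 0.279, against 0.984 or more for the 9 others. Read from the gill 2 column of the authors' deposited table, all 27 members lay above every digestive gland and gonad value, by 0.52 to 4.67 log2 units with a median of 2.60. Read from the gill 1 column of the authors' deposited table, 6 of 27 did.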
